A study of Mus musculus with 8 samples.

Results

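Slco6c1, Slco6d1 and Slco6b1 are 3 related genes of mouse chromosome 1 that belong to the organic anion transporting polypeptide (OATP) family. They were picked by gene name out of 54532 genes in the expression table, and they were selected on results of these data, with their levels in the 4 control and 4 mutant testes already known. The comparison of those levels between the groups is therefore given as a description, without a test. OATP proteins, encoded by the Slco genes, sit in the plasma membrane and carry bulky organic anions such as bile salts, steroid conjugates and thyroid hormones into cells. The Slco6 branch is known in rodents for expression in the testis, and Spdya, the gene deleted in the mutant, encodes Speedy A, an activator of meiotic CDK2. The only tissue measured here was testis, so the expression of these genes in testis could be read from the data but not set against other organs.

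The RNA came from whole testes of juvenile C57BL/6J-background mice whose spermatogenesis had been synchronized, by blocking retinoic acid (RA) synthesis in newborns and then injecting RA. Sync-Spdya fl/fl controls (4 mice) carried Spdya alleles with exon 2 flanked by loxP sites, and Sync-Spdya cKO mice (4 mice) carried the same alleles together with Ddx4-CreERT2, a tamoxifen-inducible recombinase driven by the germ-cell gene Ddx4. Both groups received tamoxifen, on RA7.5 and RA8.5 as the labels give it, and testes were collected on RA11.5 (days after RA), when the leading spermatocytes are in mid to late pachynema. The recombinase acts in germ cells only, while the RNA held every cell type of the testis, so fewer cells of a type and less RNA per cell cannot be told apart. Expression was given as FPKM, fragments per kilobase of gene length scaled to a library size, from 1 library per mouse. That size was 0.938 (control 1) to 1.05 (control 4) times the fragments of the library. Spdya, the deleted gene, was at 21.3 ± 1.76 FPKM in control and 24.1 ± 5.45 FPKM in cKO libraries (SD, n = 4), and since the groups overlapped and only exon 2 is removed, this level checks no label. The libraries held 13978342 to 19583091 fragments. Control 1 stood apart in its mitochondrial share, 0.464% of fragments against 2.97% to 3.39% in the other controls and 2.2% to 3.74% in cKO libraries.

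All 3 genes lie within 1.61 Mb of chromosome 1 (GRCm38). Slco6c1 (ENSMUSG00000026331) occupies bases 97059038 to 97128301 on the minus strand and is annotated as protein-coding, with 14 exons in its longest transcript. Slco6d1 (ENSMUSG00000026336) occupies bases 98421124 to 98516991 on the plus strand and is protein-coding, with 15 exons. Slco6b1 (ENSMUSG00000045463), at bases 96906176 to 96997577 on the minus strand, is annotated as a transcribed unprocessed pseudogene, with 15 exons in its longest transcript. Slco6b1 and Slco6c1 are 61.5 kb apart, and Slco6d1 lies a further 1.29 Mb away.

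The 250 bases before each RefSeq start site (GRCm38.p6) are shown because they let the 3 genes, which differed in level, be compared letter by letter. They lie at chr1:97128304-97128553 on the minus strand for Slco6c1, chr1:98420874-98421123 on the plus strand for Slco6d1 and chr1:96997561-96997810 on the minus strand for Slco6b1. The gene as counted for Slco6b1 reaches to base 96997577, so its RefSeq start lies inside it. The last bases of that stretch overlap the counted gene. Capitals mark the runs of at least 8 bases that are identical in all 3 genes after alignment.
Slco6c1: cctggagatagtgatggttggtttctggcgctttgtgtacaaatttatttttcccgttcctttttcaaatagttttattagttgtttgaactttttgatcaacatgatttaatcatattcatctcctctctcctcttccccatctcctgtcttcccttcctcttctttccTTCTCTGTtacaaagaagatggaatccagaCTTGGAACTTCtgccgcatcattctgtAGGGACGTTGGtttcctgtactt
Slco6d1: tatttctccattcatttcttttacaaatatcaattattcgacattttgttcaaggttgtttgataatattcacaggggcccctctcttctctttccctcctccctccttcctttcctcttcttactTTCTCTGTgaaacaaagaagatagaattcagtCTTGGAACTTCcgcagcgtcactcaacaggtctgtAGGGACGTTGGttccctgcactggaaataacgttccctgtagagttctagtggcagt
Slco6b1: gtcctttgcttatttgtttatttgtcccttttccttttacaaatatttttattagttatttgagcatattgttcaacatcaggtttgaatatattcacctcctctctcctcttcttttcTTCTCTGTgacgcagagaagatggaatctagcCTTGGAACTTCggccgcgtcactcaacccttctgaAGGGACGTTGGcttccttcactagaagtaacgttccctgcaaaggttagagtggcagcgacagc

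Over aligned bases, the Slco6b1 and Slco6c1 stretches were 81.1% identical, Slco6b1 and Slco6d1 79.8%, and Slco6c1 and Slco6d1 77.6%. The transcripts themselves were less alike, at 65%, 62% and 65.1% identity between the longest transcripts of the same pairs. The shared run CTTGGAACTTC starts 50 bases before the Slco6c1 start, 92 before that of Slco6d1 and 99 before that of Slco6b1. It was found in the promoters of 11 genes, these 3 included, 0.0335% of 32851 RefSeq promoters searched on both strands. The run AGGGACGTTGG starts 23, 57 and 64 bases before the same starts and occurred in 6 promoters (0.0183%), the others being those of Fam228a, Gm28893 and Gnb1. The shorter run TTCTCTGT, 80, 124 and 131 bases before the starts, was common, at 2.27% of promoters. None of the 3 stretches held the letters GGCAGTT (a MYB motif, 3.33% of promoters), TGACGT (CRE, 6.47%), GTTGCC (an RFX motif, 10.4%), GGGCGG (SP, 32.7%) or TATAAA (a core promoter element, 12.4%), on either strand. These matches describe letters in a window and not binding sites.

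Slco6c1 had the highest level of the family. It was at 4.83, 5.38, 7.83 and 5.56 FPKM in control 1 to 4 and at 2.89, 3.11, 1.71 and 2.69 FPKM in cKO 1 to 4. Every cKO value was below every control value. The means were 5.90 ± 1.33 FPKM in control and 2.60 ± 0.616 FPKM in cKO testes (SD, n = 4), so the control mean was 2.27 times the cKO mean. On the log2(FPKM + 0.1) scale the difference was -1.16 (SE 0.24). These values rest on 180, 277, 348 and 259 fragments in the controls and 159, 141, 82 and 130 fragments in the cKO libraries. The 95% Poisson intervals of the control values lay above those of the cKO values in 16 of 16 pairs of libraries, which covers counting error only.

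Slco6d1 was lower in level, and its groups also did not overlap. It was at 2.14, 1.65, 2.50 and 2.04 FPKM in the controls and at 1.48, 1.18, 0.991 and 0.891 FPKM in the cKO libraries. The highest cKO value lay just under the lowest control value. The means were 2.08 ± 0.349 and 1.14 ± 0.259 FPKM (SD, n = 4), the control mean being 1.83 times the cKO mean, and the log2 difference was -0.83 (SE 0.19). The libraries held 48 to 124 fragments of this gene, and the Poisson intervals were separate in 12 of 16 pairs.

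Slco6b1, the annotated pseudogene, had the lowest level of the family. Its values were 0.582, 0.465, 0.745 and 0.416 FPKM in control and 0.849, 0.377, 0.476 and 0.496 FPKM in cKO testes. The groups overlapped fully in their middle, and the highest and the lowest value of all were both in cKO libraries. The means were 0.552 ± 0.146 and 0.549 ± 0.206 FPKM (SD, n = 4), with a log2 difference of -0.03 (SE 0.26). With 15 to 41 fragments a library, the Poisson intervals were separate in 0 of 16 pairs. The size of difference that could be detected at this depth was not worked out.

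**Figure D1:**
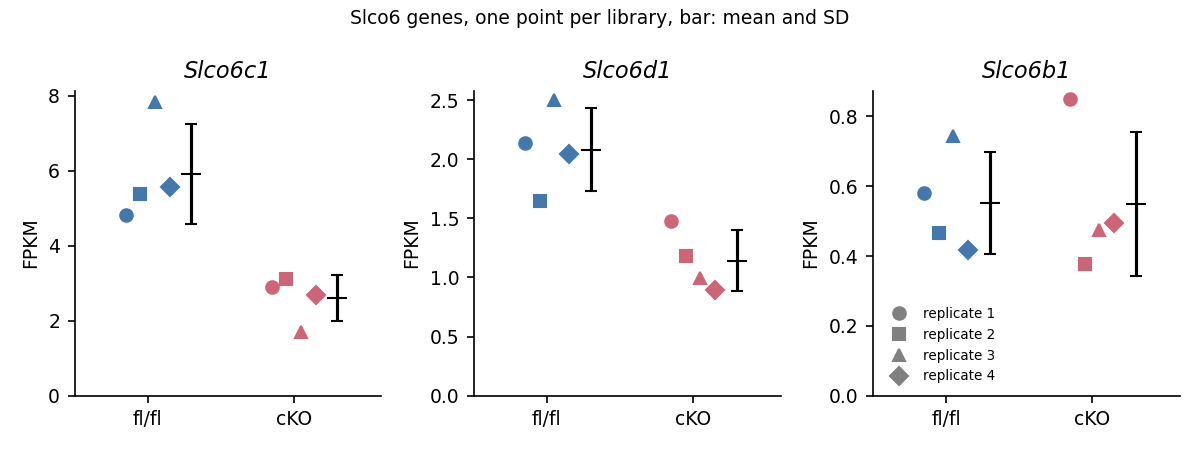
FPKM of Slco6c1, Slco6d1 and Slco6b1 (linear axis from 0, a separate scale for each gene) in the 4 fl/fl control and the 4 cKO libraries; each point is 1 library, its shape the replicate number, and the bar is the mean and SD. The cKO points lie below all control points for Slco6c1 and Slco6d1, and overlap them for Slco6b1.

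A transcriptome-wide fit gives the scale of these differences. It covered the 12141 protein-coding genes whose mean level passed 1 FPKM in control and in cKO, tested with limma and called at a Benjamini-Hochberg adjusted p below 0.05 with an absolute log2 fold change above 1. Slco6c1 and Slco6d1 entered it, and Slco6b1 did not, because of its biotype and its level. Of all genes tested, 0.0165% were called lower and 0% higher in cKO, and 0 of the 2 Slco6 genes were called. At an unadjusted p below 0.05 the shares of all genes tested were 5% lower and 5.89% higher. The voom fit called neither Slco6 gene. Groups that did not overlap occurred for 2.59% of genes in the lower and 3.64% in the higher direction, against 2 of the 3 Slco6 genes, both lower. Since the genes were chosen on this contrast, nothing is read from their counts or from their place in the fit. The log2 fold change of Slco6c1 was undercut by 16 genes (0.132%) and that of Slco6d1 by 71 genes (0.585%), where the median of all genes was 0.01.

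The order of the levels was the same in each testis, and since the levels were known when the genes were chosen it is given without a test. Slco6c1 exceeded Slco6d1 in 8 of 8 libraries, by 1.28 ± 0.33 on the log2(FPKM + 0.1) scale (SD, n = 8), with a mean step of 1.45 in control and 1.12 in cKO testes. Slco6d1 exceeded Slco6b1 in 8 of 8 libraries by 1.35 ± 0.50 (1.76 in control and 0.95 in cKO testes). Slco6c1 exceeded Slco6b1 by 2.64 ± 0.72 (3.20 and 2.07). FPKM is scaled to gene length, with 2842 bases counted for Slco6c1, 3173 for Slco6d1 and 2492 for Slco6b1, so the levels can be set side by side. Among 19122 protein-coding genes detected, 52.3% had a lower mean level than Slco6c1 (4.25 FPKM over all libraries), 40% a lower one than Slco6d1 (1.61 FPKM) and 30.2% a lower one than Slco6b1 (0.551 FPKM).

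The make-up of the family's summed expression also differed from library to library. The sum was 7.55, 7.49, 11.1 and 8.02 FPKM in the controls and 5.21, 4.67, 3.18 and 4.08 FPKM in the cKO libraries. Slco6c1 contributed 64% to 71.8% of it in the controls and 53.8% to 66.6% in cKO testes, while Slco6b1 contributed 5.19% to 7.7% and 8.08% to 16.3%. The ratio of Slco6c1 to Slco6d1 was 2.26, 3.26, 3.13 and 2.73 in the controls and 1.95, 2.62, 1.73 and 3.02 in the cKO libraries, which overlapped. The ratio of Slco6d1 to Slco6b1 was 3.36 to 4.9 in the controls and 1.74 to 3.14 in the cKO libraries, which did not. Shares and ratios with Slco6b1 rest on 15 to 41 fragments a library. In cKO 2, which had the ratio of 3.14, its 95% Poisson interval was 0.211 to 0.622 FPKM. The counting error of the ratios was not worked out.

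Sequence shared between the genes could blur such ratios if reads were assigned to the wrong copy. No run of 50 bases was common to any pair of the 3 genes. Slco6c1 shared 14 of its 2840 such runs (0.493%) with another gene, Gm47022, while Slco6d1 and Slco6b1 shared 0 of 3296 and 0 of 2443. No exon of another annotated gene overlapped their exons on either strand.

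None of the neighbouring genes tested was called. Of 5 other protein-coding genes within 1 Mb of the 3 genes, 3 were tested and 0 were called by limma, with 0 at an unadjusted p below 0.05 and 1 in the voom fit, which also called 0. Ppip5k2, a kinase of inositol pyrophosphate synthesis, was at 6.71 ± 0.819 FPKM in control and 5.66 ± 0.224 FPKM in cKO testes (log2 fold change -0.24, SE 0.11, adjusted p = 0.478 by limma). Gin1 had 4.54 and 4.18 FPKM (-0.12, adjusted p = 0.741), and Pam, the enzyme that amidates peptide hormones, had 4.14 and 4.84 FPKM (0.24, adjusted p = 0.655). D1Ertd622e, at a mean of 0.396 FPKM, and Slco4c1, an OATP gene with 11 fragments in all libraries together, were below the filter. Between Slco6b1 and Slco6c1 lies the lincRNA Gm28901, at 4.35 ± 2.7 FPKM in control and 3.16 ± 0.987 FPKM in cKO testes, with overlapping groups.

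**Figure D2:**
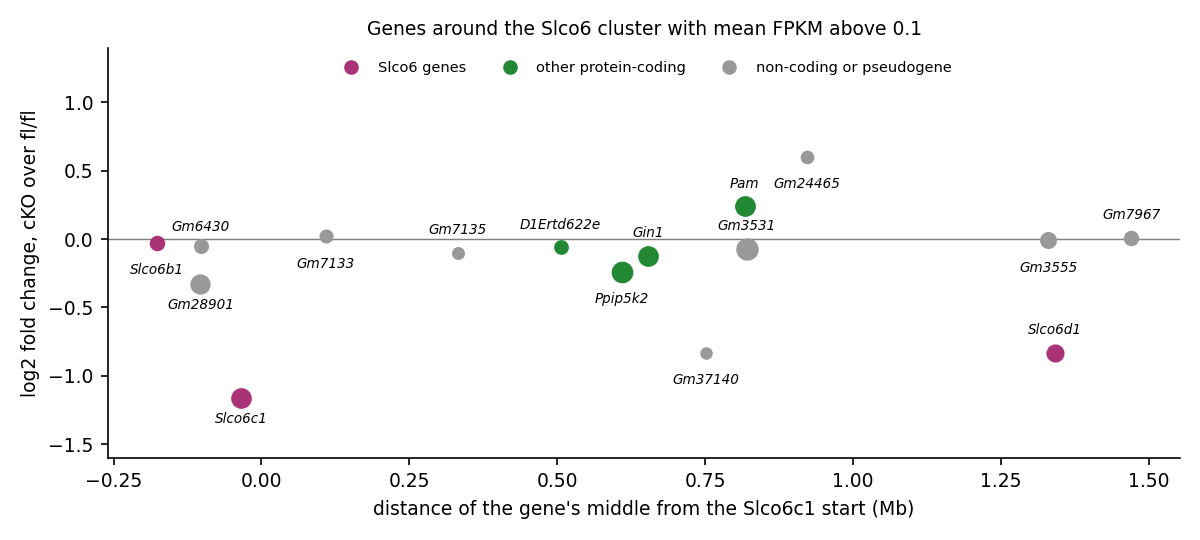
Log2 fold change (cKO over fl/fl, on log2(FPKM + 0.1)) of the 3 Slco6 genes and of 13 other genes in the window with a mean FPKM above 0.1, against the distance of each gene's middle from the Slco6c1 start in Mb; larger points have a higher mean FPKM. Slco6c1 (-1.16) and Slco6d1 (-0.83) lie below the axis, as does the unclassified transcript Gm37140 (-0.83, at 0.176 FPKM in control and 0.0593 FPKM in cKO), and the other protein-coding genes lie between -0.24 and 0.24.

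None of the other OATP genes tested was called either. Of 14 in the table, 2 passed the filter, and limma and voom called 0 of them, with 0 at an unadjusted p below 0.05 in either direction. Slco1a5 was at 4.84, 5.22, 6.57 and 5.41 FPKM in control and 4.13, 5.06, 4.94 and 4.54 FPKM in cKO testes, with overlapping groups (log2 fold change -0.23, SE 0.12, adjusted p = 0.558 by limma). Slco3a1, a widely expressed prostaglandin and thyroxine carrier, was at 4.22, 3.91, 3.72 and 4.75 FPKM and 4.08, 5.04, 4.81 and 5.17 FPKM (0.20, SE 0.12, adjusted p = 0.616). In control testes both means lay below the 5.90 FPKM of Slco6c1, and in cKO testes, at 4.67 and 4.78 FPKM, above its 2.60 FPKM. The remaining 12 were lower, led by Slco1a4 at a mean of 0.802 FPKM and Slco2b1 at 0.703 FPKM, and Slco1a1, a liver carrier, was listed at 0 in all libraries.

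Further genes were read from 5 lists. They covered carriers, exporters and enzymes that handle organic anions or thyroid hormones, and also solute carriers known from germ cells, whatever they carry. Of 48 genes listed, 47 were in the table and 23 were tested. None of the 23 was called by limma or voom, and 5 were lower and 2 higher at an unadjusted p below 0.05. Of the 5 lower ones, 4 came from the list of germ cell solute carriers. The shares of all genes tested at that p were 5% and 5.89%. The groups of the 23 did not overlap for 1 gene in each direction, against 2.59% and 3.64% of all genes tested.

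Abcc12, an exporter of the multidrug resistance protein family, was the gene without overlap in the lower direction. It was at 10.2, 12.8, 17.9 and 12.3 FPKM in control and 7.40, 7.83, 5.61 and 6.93 FPKM in cKO testes, every cKO value being the lower (log2 fold change -0.91, SE 0.17, adjusted p = 0.127 by limma). The other exporters named by level were closer to 0. Abcc1 (17.7 and 19.3 FPKM), Abcc5 (12.8 and 12.1 FPKM) and Abcc10 (6.84 and 6.05 FPKM) had log2 fold changes of 0.12, -0.08 and -0.17. The 7 exporters tested had a median of 0.11.

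Thyroid hormone transport and handling included the gene without overlap in the higher direction, Slc7a5, the light chain of a large neutral amino acid and thyroid hormone carrier. It was at 134 ± 11.2 FPKM in control and 160 ± 5.05 FPKM in cKO testes (SD, n = 4, log2 fold change 0.26, adjusted p = 0.449 by limma). Its heavy chain partner Slc3a2 (63.6 and 69.3 FPKM) and the thyroid hormone receptor Thra (19.3 and 22.5 FPKM) had log2 fold changes of 0.15 and 0.22. The median of the 6 tested was 0.20. Among genes of steroid sulphation and desulphation, 4 were tested, with a median of 0.20. They were the sulphate donor synthases Papss1 (15.4 and 16.6 FPKM) and Papss2 (4.61 and 5.54 FPKM), the sulphatase activator Sumf1 (11.2 and 12.1 FPKM), and the sulphotransferase Sult1a1 (6.31 and 9.02 FPKM, log2 fold change 0.53, adjusted p = 0.333). Of 10 organic anion and bile acid carriers outside the OATP family, none passed the filter. The highest was Slc51b, at a mean of 1.01 FPKM, and 2 were listed at 0 in all libraries.

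Solute carriers known from germ cells had a median log2 fold change of -0.50. All 6 tested were negative, 4 at an unadjusted p below 0.05, and none was called. Of all genes tested, 5% were lower at that p. The glucose carrier Slc2a3 was at 142 ± 29.9 FPKM in control and 94.6 ± 18.4 FPKM in cKO testes (-0.58, adjusted p = 0.31 by limma). The sperm anion exchanger Slc26a8 was at 8.52 and 5.77 FPKM (-0.52), Slc22a16, a carnitine carrier, at 4.75 and 3.34 FPKM (-0.48), and the ADP/ATP carrier Slc25a31 at 112 and 96.1 FPKM (-0.20). The groups of these 4 genes overlapped.

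**Figure D3:**
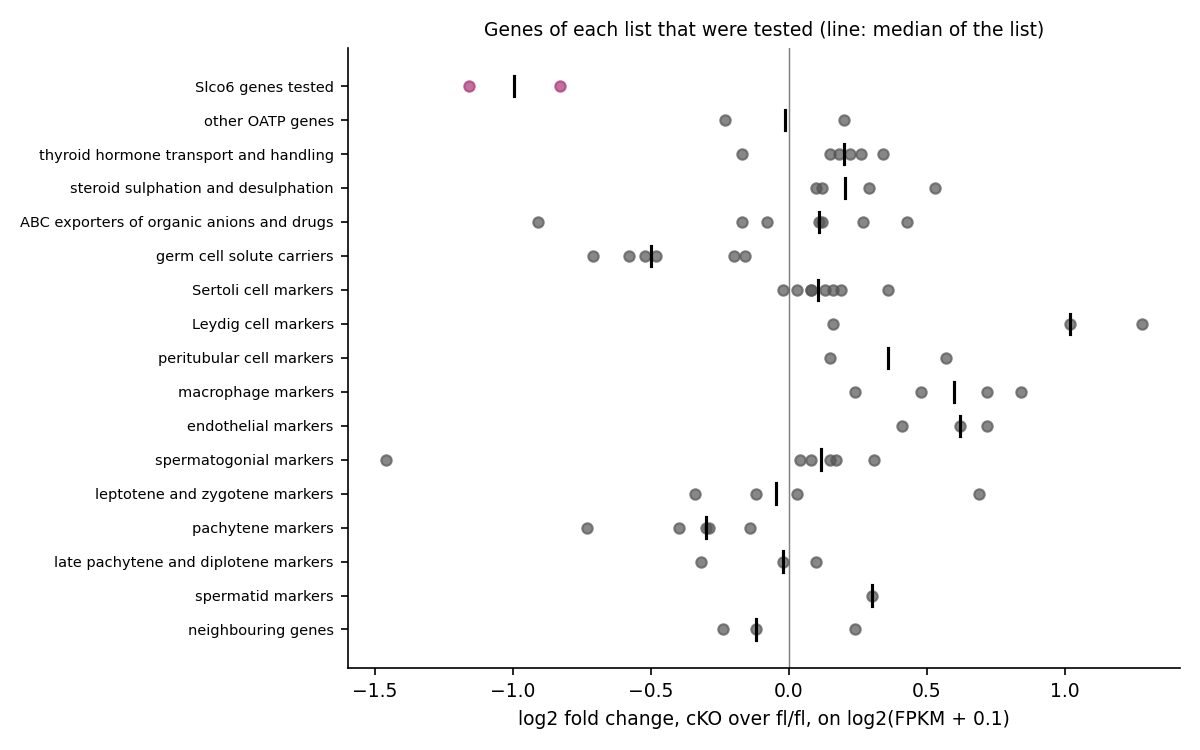
Log2 fold change (cKO over fl/fl) of each tested gene of each list, with 1 point per gene and a line at the list's median. Slco6c1 and Slco6d1 (top row, -1.16 and -0.83) lie to the left of the other OATP genes (-0.23 and 0.20), Abcc12 (-0.91) to the left of the other ABC exporters, and the 6 germ cell solute carriers to the left of 0.

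Markers of the testis cell types were read beside these results. Over 10 lists, 50 of 52 genes were in the table and 39 were tested. Limma and voom called 0 of them, while 4 were lower and 8 higher at an unadjusted p below 0.05. The shares of all genes tested at that p were 5% and 5.89%. Among the markers tested, groups did not overlap for 0 genes in the lower and 4 in the higher direction (Clu, Acta2, Csf1r and Meiob). Over all genes tested these shares were 2.59% and 3.64%. The tested markers of pachytene spermatocytes were on the lower side. The 5 tested were negative with a median of -0.30, led by Ldhc, the germ-cell lactate dehydrogenase (524 ± 128 and 313 ± 61.4 FPKM, log2 fold change -0.73, adjusted p = 0.287 by limma), the chaperone Hspa2 (389 and 313 FPKM, -0.30) and Piwil1 of the piRNA pathway (202 and 153 FPKM, -0.40). Below the filter were 2 further markers, which went opposite ways. Hist1h1t, with 3 to 13 fragments a library, had 0.279 FPKM in control and 0.667 FPKM in cKO testes. Pou5f2 had 0.462 and 0.261 FPKM. The summed level of the list's genes in the table was 855 to 1383 FPKM in controls and 666 to 1028 FPKM in cKO libraries.

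The somatic lists were on the higher side in cKO testes by the median of the genes tested, though not in every gene. Their sums were 1163 to 1571 FPKM in control and 1521 to 1795 FPKM in cKO testes for Sertoli cells, led by Clu (823 and 1056 FPKM), 16.5 to 37.9 and 28.6 to 46.7 FPKM for Leydig cells, led by Hsd3b1 (11.2 and 20.2 FPKM), and 42.7 to 73.1 and 71.6 to 101 FPKM for peritubular cells, led by Acta2 (49.5 and 72.8 FPKM). They were 6.08 to 13.3 and 13.1 to 16.2 FPKM for macrophages, led by C1qa (4.70 and 8.01 FPKM), and 4.06 to 10.4 and 9.56 to 12.4 FPKM for endothelium, led by Cdh5 (3.98 and 6.19 FPKM). The ranges of the sums overlapped in all 5 somatic lists, while the groups of Clu, Acta2 and Csf1r did not. Nor did those of the Leydig marker Cyp11a1, which was below the filter, at 0.766 FPKM in control and 1.24 FPKM in cKO testes. Also below it were the Leydig markers Cyp17a1 (0.499 and 0.753 FPKM) and Insl3 (0.576 and 0.572 FPKM). The peritubular marker Tagln, below it as well, was lower in cKO testes (0.855 and 0.712 FPKM). Among Sertoli markers, Dhh and Wt1 had log2 fold changes of -0.02 and 0.03. Clu makes up most of the Sertoli sum. The median log2 fold change of the genes tested was 0.11 for Sertoli cells, 1.02 for Leydig cells, 0.36 for peritubular cells, 0.60 for macrophages and 0.62 for endothelium.

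The sums of the remaining germ cell lists overlapped between groups as well. Their sums were 125 to 154 FPKM in control and 141 to 147 FPKM in cKO testes for spermatogonia, led by Dmrt1 (72.3 and 80.0 FPKM), and 132 to 169 and 136 to 215 FPKM for leptotene and zygotene cells, led by Hormad1 (124 and 128 FPKM). Within these lists, 2 genes singled out after their values were seen went opposite ways. The meiotic entry gene Stra8 was at 10.8 ± 7.05 FPKM in control and 3.40 ± 1.17 FPKM in cKO testes, with overlapping groups (log2 fold change -1.46, adjusted p = 0.28 by limma), and the recombination factor Meiob was at 16.3 ± 2.38 and 27.1 ± 8.58 FPKM (0.69, adjusted p = 0.28). The sums were 94.2 to 292 and 110 to 189 FPKM for late pachytene and diplotene cells, led by Tesmin (162 and 121 FPKM), and 2.4 to 9.56 and 4.29 to 6.2 FPKM for spermatids. The late pachytene and diplotene marker Ccna1, below the filter, was at 1.65 FPKM in control and 0.964 FPKM in cKO testes, without overlap. Of the spermatid markers, Spaca1 was at 4.47 and 4.76 FPKM and the others were near 0, with Prm1, Prm2, Tnp1 and Acrv1 each at a mean of at most 0.298 FPKM.

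**Figure D4:**
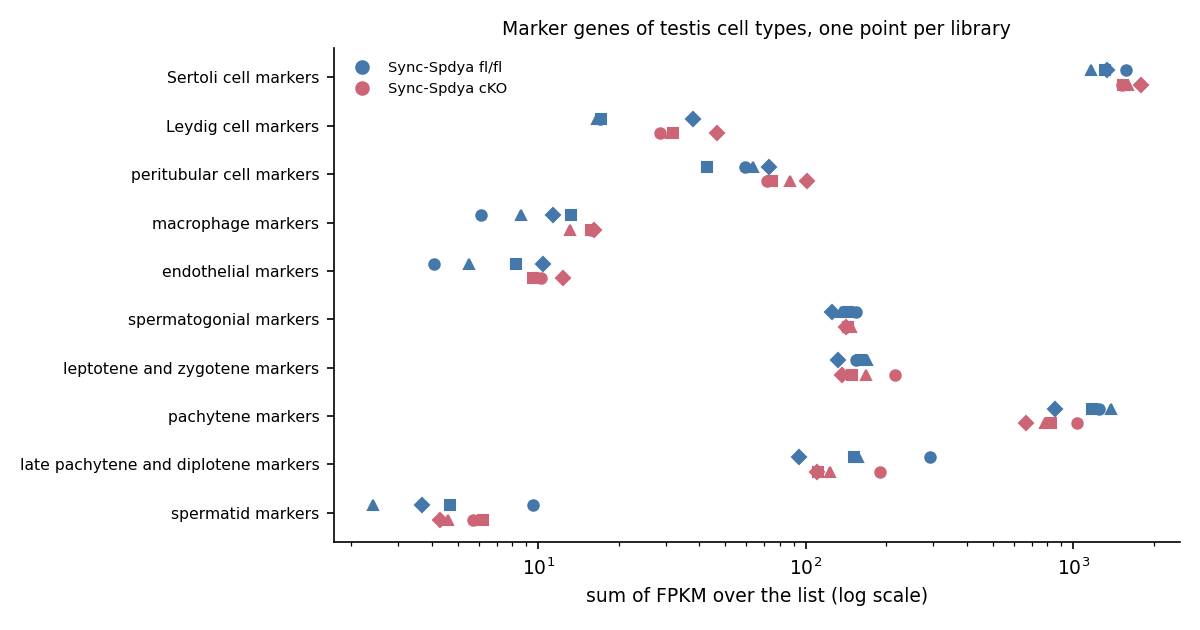
Sum of FPKM over each cell type's marker list (log scale), with 1 point per library, blue for Sync-Spdya fl/fl and red for Sync-Spdya cKO. The pachytene sums reach 1383 FPKM in controls and 1028 FPKM in cKO libraries, the somatic sums lie further right in cKO libraries, and the sums of the groups overlap in every list.

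Set against the 5 pachytene markers tested in the same library, a measure chosen after the data were seen, Slco6c1 was at -4.31 ± 0.25 in control and -5.10 ± 0.39 in cKO testes on the log2 scale (SD, n = 4), a difference of -0.79 in place of -1.16. Slco6d1 was at -5.76 ± 0.23 and -6.21 ± 0.08, a difference of -0.46 in place of -0.83. Neither gene's groups overlapped on this scale, while those of Slco6b1 did, at -7.51 ± 0.15 and -7.17 ± 0.31. The markers' mean itself was lower by 0.37 in cKO testes. The part of pachytene cell content in the levels of the 3 genes beyond this was not tested. Without control 1, the library with few mitochondrial fragments, the log2 differences were -1.25 for Slco6c1, -0.81 for Slco6d1 and 0.00 for Slco6b1.

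Across the 8 libraries, the levels of some genes ran closely with the mean profile of the Slco6 genes, and those of others with Slco6c1 alone. By Pearson's r with the mean of the 3 genes, each scaled to unit variance, the nearest of 12139 genes were Atr, a checkpoint kinase (r = 0.977), Ppp3r2, a testis calcineurin subunit (0.974), Carf (0.974), 4930503L19Rik (0.972) and Rrp1b (0.972). Atr was at 25.3 ± 2.74 FPKM in control and 20 ± 2.89 FPKM in cKO testes, and within groups its r, taken on deviations from the group means, was 0.907. With Slco6c1 itself the r of these 5 genes was lower, at 0.799, 0.814, 0.913, 0.800 and 0.751 in the same order. The mean gives equal weight to Slco6b1, which had 15 to 41 fragments a library. In all, 156 of the 12139 genes exceeded an r of 0.9 with the mean, so the nearest were not far ahead of many others. With Slco6c1 alone, a profile added after the data were seen, the nearest were Abcc12 (r = 0.985), Tcp10a (0.974), Dnah2, an axonemal dynein (0.972), Ttc39b (0.971) and Ccdc175 (0.970), and 91 genes (0.75%) exceeded 0.9. Control 3 was highest and cKO 3 lowest for Slco6c1, Abcc12, Tcp10a and Dnah2 alike. Since the last 3 were picked by their r with Slco6c1 over these libraries, this adds nothing to the r. These correlations are descriptions over 8 libraries, which include the group difference and differ in sequencing depth.

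**Figure D5:**
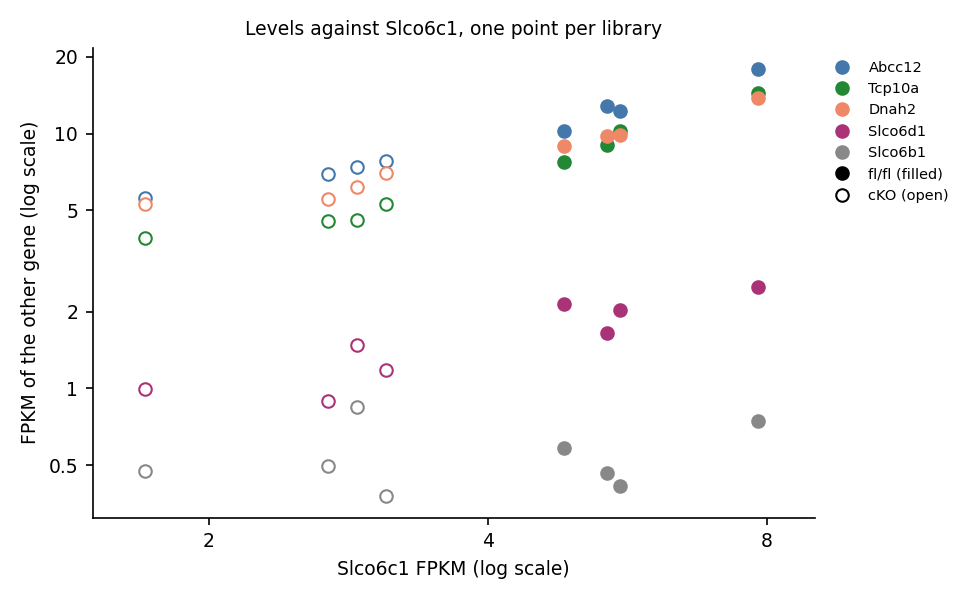
FPKM of Abcc12, Tcp10a, Dnah2, Slco6d1 and Slco6b1 against FPKM of Slco6c1 (both axes on a log scale), with 1 point per library, filled for fl/fl and open for cKO. Abcc12, Tcp10a and Dnah2 were picked by their r with Slco6c1 over these libraries. Abcc12 rises with Slco6c1 from 5.61 FPKM in cKO 3 to 17.9 FPKM in control 3, whereas Slco6b1 shows its highest value, 0.849 FPKM, in cKO 1.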

How the data were processed

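RNA of 8 whole testes, 4 control and 4 cKO, was sequenced as 1 library per mouse. The deposited values are FPKM per gene, computed by the sequencing company for the authors on GRCm38 (mm10), with gene lengths beside them. The aligner, the counting tool and strand use are not given in the sources used here. All values were whole fragments, within a tolerance of 0.02, once multiplied back by gene length and library size, which gave the depth of each library and the Poisson intervals.

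The 3 genes and all gene lists were chosen with earlier results of these data known. Genes were fitted with limma 3.58.1 in R 4.3.3 (trend) on log2(FPKM + 0.1), and p-values were adjusted by Benjamini-Hochberg over all 12141 genes. A voom fit used the recovered fragments. The pseudocount shrinks the fold change of low genes. Of each pathway list up to 4 genes, and of each cell type list up to 3, were named by highest mean FPKM, beside called genes, and 1 gene so named is not reported here. Promoters came from RefSeq (all 3 genes matched), were aligned with mafft 7.526, and transcripts and exons came from GENCODE M21, whose exon lengths equal the counted ones for the 3 genes. The labels and the methods give different tamoxifen times and RNA extraction, and the labels' times are used. Replicate numbers were checked for pairing by the correlation of same-numbered deviations. The fit was tested on simulated data.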

Additional observations from a re-analysis of the deposited data

Results flagged for a closer look

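Of 38 groups of 4 libraries examined, 4 held a library whose gap to the nearest other one was large for the group's range, where chance gives about 1.9. The Leydig marker sum was 37.9 FPKM in control 4, against 16.5 to 17.2 FPKM in the other controls. The macrophage marker sum was 13.1 FPKM in cKO 3, against 15.8 to 16.2 FPKM in the other cKO libraries. The late pachytene and diplotene marker sum was 189 FPKM in cKO 1, against 110 to 123 FPKM. The mitochondrial share was 0.464% in control 1, against 2.97% to 3.39%. No value of Slco6c1, Slco6d1 or Slco6b1 stood apart from its group in this way.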

How the results depend on the processing

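With a pseudocount of 1 the log2 difference of Slco6d1 was -0.53, a scale that shrinks low genes by construction. Relative to the pachytene markers, an alternative chosen after seeing the data, it was -0.46, that of Slco6c1 -0.79 and that of Slco6b1 0.34. Leaving out 1 library at a time gave -1.26 to -0.98 for Slco6c1, -0.95 to -0.73 for Slco6d1 and -0.23 to 0.11 for Slco6b1, whose sign is not fixed: it was 0.11 without control 3, 0.10 without cKO 2, 0.01 without cKO 3 and 0.04 after rescaling to TPM. It gave 1.23 to 1.36, 1.26 to 1.44 and 2.52 to 2.78 for the log2 steps from Slco6c1 to Slco6d1, Slco6d1 to Slco6b1 and Slco6c1 to Slco6b1, which a pseudocount of 1 lowered to 0.95, 0.73 and 1.67, and an r of Atr of 0.959 to 0.99. The counts of called genes among other OATP genes, neighbours, pathway and marker lists were 0 in every fit run. With the replicate number as a replicate block no count changed. The differences stay at -1.16 and -0.83 by construction, since each number holds 1 control and 1 cKO library. The same-numbered libraries correlated at 0.288, 0.131, 0.076 and 0.406, too low in 1 case to treat them as pairs. Rescaling to TPM moved the median of all genes by 0.08. Slco6b1, at 15 to 41 fragments a library, is limited by depth.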
